A study of Caenorhabditis elegans with 2 samples.

Results

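The genes described here encode subunits and assembly factors of the mitochondrial respiratory chain, the mitochondrial ATP synthase and the vacuolar proton pump of *Caenorhabditis elegans*. They are every protein-coding gene of the nuclear chromosomes whose symbol begins with cox-, nuo-, sdha-, sdhb-, sdhc-, sdhd-, ucr-, cyc-, atp- or vha-, a rule on names that was chosen with earlier results of these data known. This gave 58 of 19973 protein-coding genes, of which 38 belong to the respiratory chain and ATP synthase and 20 to the vacuolar ATPase. The Ensembl and the RefSeq symbols gave the same 58 genes. The data are chromatin immunoprecipitation and sequencing of NHR-111, a nuclear hormone receptor, which was recovered through GFP from L4 larvae of strain OP569, collected with both sexes pooled at 48 h. The animals had been synchronised by starving newly hatched larvae after bleaching. All animals shared the unc-119(tm4063) mutation and the wgIs569 transgene, which carries nhr-111 joined to TY1, EGFP and 3xFLAG together with an unc-119(+) rescue. What drives the transgene is not stated in the sources used here. There was 1 group of 2 biological replicates of whole animals, so no condition was compared with another, and the cells in which a site was recovered are not known.

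The respiratory chain passes electrons from NADH and succinate through complexes I to IV to oxygen and pumps protons out of the mitochondrial matrix. ATP synthase, also called complex V, uses the returning protons to make ATP. The vacuolar ATPase works in the other direction, since its V1 sector splits ATP and its membrane-bound V0 sector moves protons into lysosomes and other acidic compartments or out of the cell. In *C. elegans* it acidifies the intestinal lumen and takes part in excretion and in building the cuticle.

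Each gene was scored by the intervals whose summit fell in a window around its annotated start, reaching 1000 bp upstream and 200 bp downstream. The authors deposited 30000 intervals for each replicate and 30000 for both replicates pooled, lists that hold background as well as peaks, and a thresholded list of 501 peaks. The 501 were also the 501 strongest intervals of the pooled list. An interval outside the 501 may be background. Each interval carries a signal value on a scale the sources used here do not state, and rank 1 is the highest signal of a list. The weakest pooled interval had a signal of 32.1, the weakest of replicate 1 had 17.5 and the weakest of replicate 2 had 18.8. No list held intervals on the mitochondrial genome, so the subunits it encodes were not scored. Read totals are not in the files used here, so the depth of each library is unknown.

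A thresholded summit lay in the window of 4 of the 58 genes, or 6.90% (exact 95% interval 1.91 to 16.7%), against 1.05% of all protein-coding genes. They were cox-6A, cox-5B and cox-5A, which encode nuclear subunits of cytochrome c oxidase, the terminal complex of the chain, and vha-2, which encodes a proteolipid c subunit of the V0 ring. The 3 cytochrome c oxidase genes were 42.9% of the 7 subunit genes of complex IV (exact 95% interval 9.90 to 81.6%). None of the 6 genes of complex I, the 4 of complex II, the 8 of complex III and cytochrome c, the 8 complex IV assembly genes, the 5 of complex V or the 9 of V1 had a thresholded summit in the window. These group sizes allow little to be said, since 0 of 8 genes has an exact upper limit of 36.9%. Because of how the members were chosen, no test was made on the list.

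**Figure D1:**
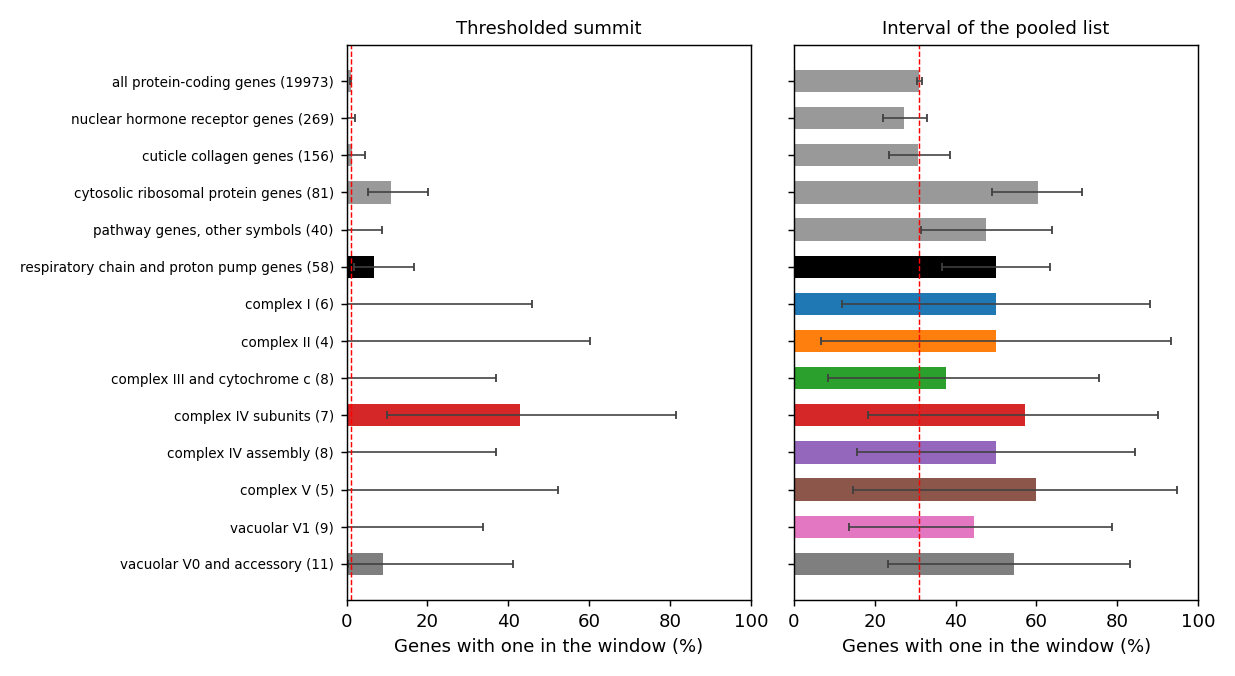
Percentage of genes in each group with a thresholded summit (left) or any interval of the pooled list (right) in the window, with the number of genes in brackets and exact 95% binomial intervals as error bars. The dashed line is the value for all protein-coding genes, 1.05% on the left and 31.0% on the right. The complex IV subunits have the longest bar on the left, at 42.9%.

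The peak at cox-6A was the strongest of the 4 and the most alike in the replicates. Replicate 1 gave a signal of 76.2 (rank 107) and replicate 2 one of 84.3 (rank 118), with a mean of 80.2 ± 5.74 (SD, n = 2). In the pooled list it had a signal of 161 at rank 96. The interval covers chromosome III 5080703 to 5081106 (assembly ce11), and the summit lies 819 bp upstream of the cox-6A start, outside any protein-coding gene. It lies only 7 bp upstream of the start of F54D8.7, a small nuclear RNA gene on the opposite strand (chromosome III 5080798 to 5080898). The 101 bases of that gene occur 17 times without a mismatch in the genome, so reads inside it could have come from any copy, and the sources used here do not state how such reads were placed. A thresholded summit lay within 250 bp of the start at 2 of the 17 copies, and each of the 3 lists of 30000 had an interval there at 4 copies. No other interval lay in the cox-6A window in any list.

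The peak at cox-5B was also present in both libraries. Replicate 1 gave 56.1 (rank 363) and replicate 2 gave 79.1 (rank 157), with a mean of 67.6 ± 16.3 (SD, n = 2) and a pooled signal of 136 (rank 176). The interval covers 9788515 to 9788918 of the first chromosome, and the summit is 8 bp upstream of the Ensembl start of cox-5B and 292 bp upstream of its RefSeq start. The windows of 2 non-coding RNA genes, F26E4.14 and F26E4.16, also hold this summit. A further pooled interval at rank 1179 lay 770 bp upstream of the Ensembl start of cox-5B. It was in the stretch between cox-5B and tba-1, an alpha tubulin gene transcribed away from cox-5B. At that site replicate 1 gave 51.0 (rank 550) and replicate 2 gave 24.6 (rank 16535), so its order between the libraries was the reverse of that at the cox-5B start.

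At cox-5A the libraries differed widely. Replicate 1 gave 23.8 (rank 14463) and replicate 2 gave 113 (rank 42), with a mean of 68.4 ± 63.1 (SD, n = 2) and a pooled signal of 135 (rank 183). The replicate 2 signal was 4.76 times that of replicate 1, the highest ratio among the 2617 protein-coding genes whose strongest pooled interval was matched within 200 bp in both replicates, where the median was 1.11. The interval covers chromosome III 12904996 to 12905399 outside protein-coding genes, and its summit lies 293 bp upstream of the start. The summit was in the window of no other annotated gene. Inside cox-5A, 578 bp downstream of the start and so outside the window, replicate 1 had an interval with a signal of 41.1 at rank 1569, and the nearest in replicate 2, at 461 bp, had 22.3 at rank 21102.

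The vha-2 peak had a matching summit in replicate 1 only. Its signal there was 92.0 at rank 51, with the summit 18 bp upstream of the start, and replicate 2 had no interval with a summit within 200 bp of it. The pooled interval, at chromosome III 9781947 to 9782350, had a signal of 118 at rank 287 and its summit 15 bp upstream. Replicate 2 did have intervals around the gene. That at 535 bp upstream had a signal of 37.8 at rank 3710. That at 305 bp downstream, beyond the window, had a signal of 49.9 at rank 1009. It ran from 103 to 506 bp downstream and so overlapped the thresholded interval, which ended 186 bp downstream. The downstream site was matched by a pooled interval at rank 2711 in a coding exon of vha-2 and by a replicate 1 interval with a signal of 33.9 at rank 3981. The window of the neighbouring gene R10E11.6 also holds the vha-2 summit. Upstream lies vha-1, another proteolipid c gene, whose start is 895 bp from the same summit.

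**Figure D2:**
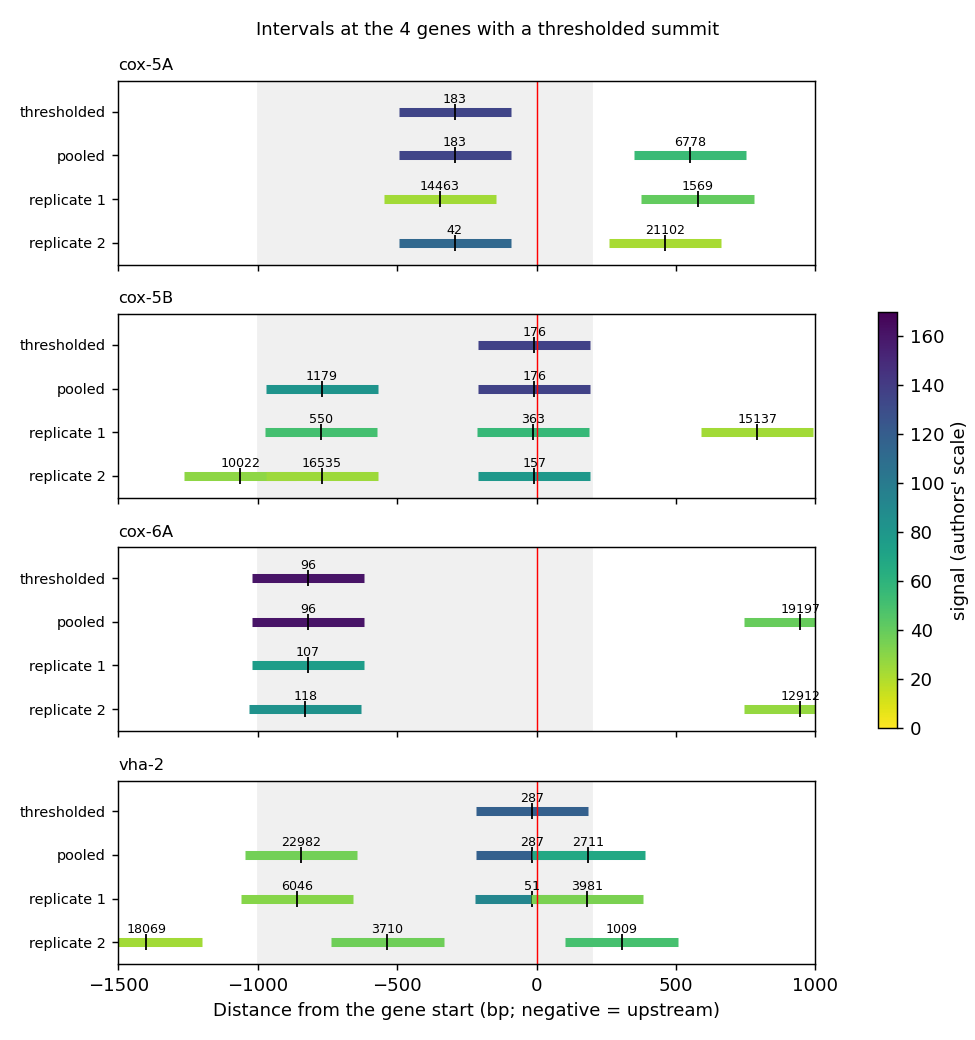
Intervals around the starts of cox-5A, cox-5B, cox-6A and vha-2 in the 4 deposited lists, plotted by distance from the gene start in bp. Bars are intervals coloured by signal on the scale as deposited, ticks are summits, numbers are ranks within each list, and the grey band is the window around the start. The ranks match between libraries at cox-6A (107 and 118), while at cox-5A they are 14463 and 42.

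The sequences under the summits are given for 6 genes, the peaks at cox-5A, cox-6A and vha-2 and 3 weaker sites that lay outside annotated untranslated regions. Each runs on the gene's strand from 50 bases before the summit to 50 after it. The bases were read from the RefSeq sequence of assembly WBcel235, which has the coordinates of ce11. Those of vha-2 and vha-20 stop directly before the annotated start of the gene. Whether transcription begins there is not known from these data. The summit is base 51 in every one. Capitals mark matches on either strand to TCACGTGA, the E-box form bound by HLH-30 and its relatives, AGGTCA, a nuclear receptor half-site, GATAA, the core bound by GATA factors, TATAAA, the TATA box core, the repeat GAGAGA, the word TTTCAG, the end of a splice acceptor, and CGAAAC, a word picked after these sequences had been read. The cox-5A site is chrIII:12905148-12905248, on the plus strand.
cox-5A: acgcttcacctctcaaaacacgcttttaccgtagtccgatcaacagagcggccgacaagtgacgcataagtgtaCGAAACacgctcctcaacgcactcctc
The cox-6A site is chrIII:5080855-5080955, plus strand, and it begins within the small nuclear RNA gene.
cox-6A: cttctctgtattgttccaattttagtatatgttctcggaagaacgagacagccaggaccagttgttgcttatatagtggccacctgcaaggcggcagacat
The vha-2 site is chrIII:9782099-9782163, plus strand, where a GATAA and a GAGAGA match overlap.
vha-2: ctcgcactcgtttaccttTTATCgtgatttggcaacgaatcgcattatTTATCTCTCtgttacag
The vha-20 site is chrX:14164507-14164560, minus strand, and ends in the acceptor word directly before the annotated start.
vha-20: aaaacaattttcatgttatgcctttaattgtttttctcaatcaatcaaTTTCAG
The vha-8 site is chrIV:6790550-6790650, plus strand.
vha-8: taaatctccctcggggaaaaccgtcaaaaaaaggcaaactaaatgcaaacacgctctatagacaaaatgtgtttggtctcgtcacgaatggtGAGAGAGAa
The ucr-2.2 site is chrX:15173657-15173757, plus strand.
ucr-2.2: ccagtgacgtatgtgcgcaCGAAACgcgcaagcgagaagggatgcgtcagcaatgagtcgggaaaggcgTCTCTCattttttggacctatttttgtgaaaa

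Neither TCACGTGA nor AGGTCA occurred in the 101 bp around the strongest pooled summit of any of the 29 members that had one. Over the 5562 distinct strongest pooled summits of all protein-coding genes, these words were in 0.144% and 2.86% of windows. GAGAGA was in 6 of the 29 (20.7%, against 9.44% of all such summits), GATAA in 4 (13.8%, against 17.98%), TATAAA in 3 (10.3%, against 7.44%) and TTTCAG in 4 (13.8%, against 16.5%). In the 300 bp from 250 bp upstream of the start to 50 bp downstream, the shares for the 58 genes and for all 19973 promoters were 24.1% and 21.8% for GAGAGA, 53.4% and 57.6% for GATAA, 34.5% and 37.9% for TATAAA, and 63.8% and 51.7% for TTTCAG. Neither TCACGTGA nor AGGTCA was in any promoter of the 58 genes, against 0.756% and 8.27% of all promoters. These differences were not tested. The added word CGAAAC was in 6 of the 29 summit windows (20.7%, against 4.51% of all summits) and in 12.1% of member promoters against 13.4% of all promoters. It was chosen on these sequences, so the first of those shares is a description and no evidence. The GC content of the 101 bp had a median of 44.6% at member summits (33.7 to 59.4%), 41.6% at all such summits and 48.5% at the 501 thresholded peaks. It was 52.5% at cox-5A, 57.4% at cox-5B, 45.5% at cox-6A and 43.6% at vha-2.

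Counted with all 30000 pooled intervals, 29 of the 58 genes (50%, exact 95% interval 36.6 to 63.4%) had at least 1 in the window, against 31.0% of all protein-coding genes. The replicate lists gave 25 genes (43.1%) in replicate 1, against a background of 30.6%, and 30 (51.7%) in replicate 2, against 30.9%. Both replicates had a summit in the window within 200 bp of each other at 14 genes (24.1%, exact 95% interval 13.9 to 37.2%), against 12.6% of all protein-coding genes. When the summits had to lie within 50 bp the count was 5 (8.62%), close to the 6.70% of all protein-coding genes. It was 7 with a window of 500 and 100 bp (12.1%, against 6.44%) and 25 with 2000 and 500 bp (43.1%, against 24.1%). The 14 were cox-5A, cox-5B, cox-6A, nuo-4, ucr-11, ucr-2.2, atp-1, atp-3, vha-3, vha-8, vha-11, vha-13, vha-19 and vha-20. Of the 58 windows, 20 held an interval in both replicates at any distance, 5 only in replicate 1 and 10 only in replicate 2. Among the 29 genes with a pooled interval the median rank of the strongest was 8090 and its median signal 52.3, against 13459 and 44.7 over the protein-coding genes with one.

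Near the top of the lists the counts were smaller. Among the 501 strongest intervals of replicate 1 the member genes were cox-5B, cox-6A and vha-2 (3 genes, 5.17%, against 0.976% of all protein-coding genes). In replicate 2 they were cox-5A, cox-5B and cox-6A (3 genes, 5.17%, against 1.06%). Among 10 times as many intervals the counts were 10 in replicate 1 (17.2%, against 6.36%) and 11 in replicate 2 (18.97%, against 6.64%). The genes cox-5B, cox-6A, vha-2, vha-11, vha-13 and vha-20 were in both of these longer sets. For vha-2 the sites differed, since the strongest summit was 18 bp upstream in replicate 1 and 535 bp upstream in replicate 2.

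**Figure D3:**
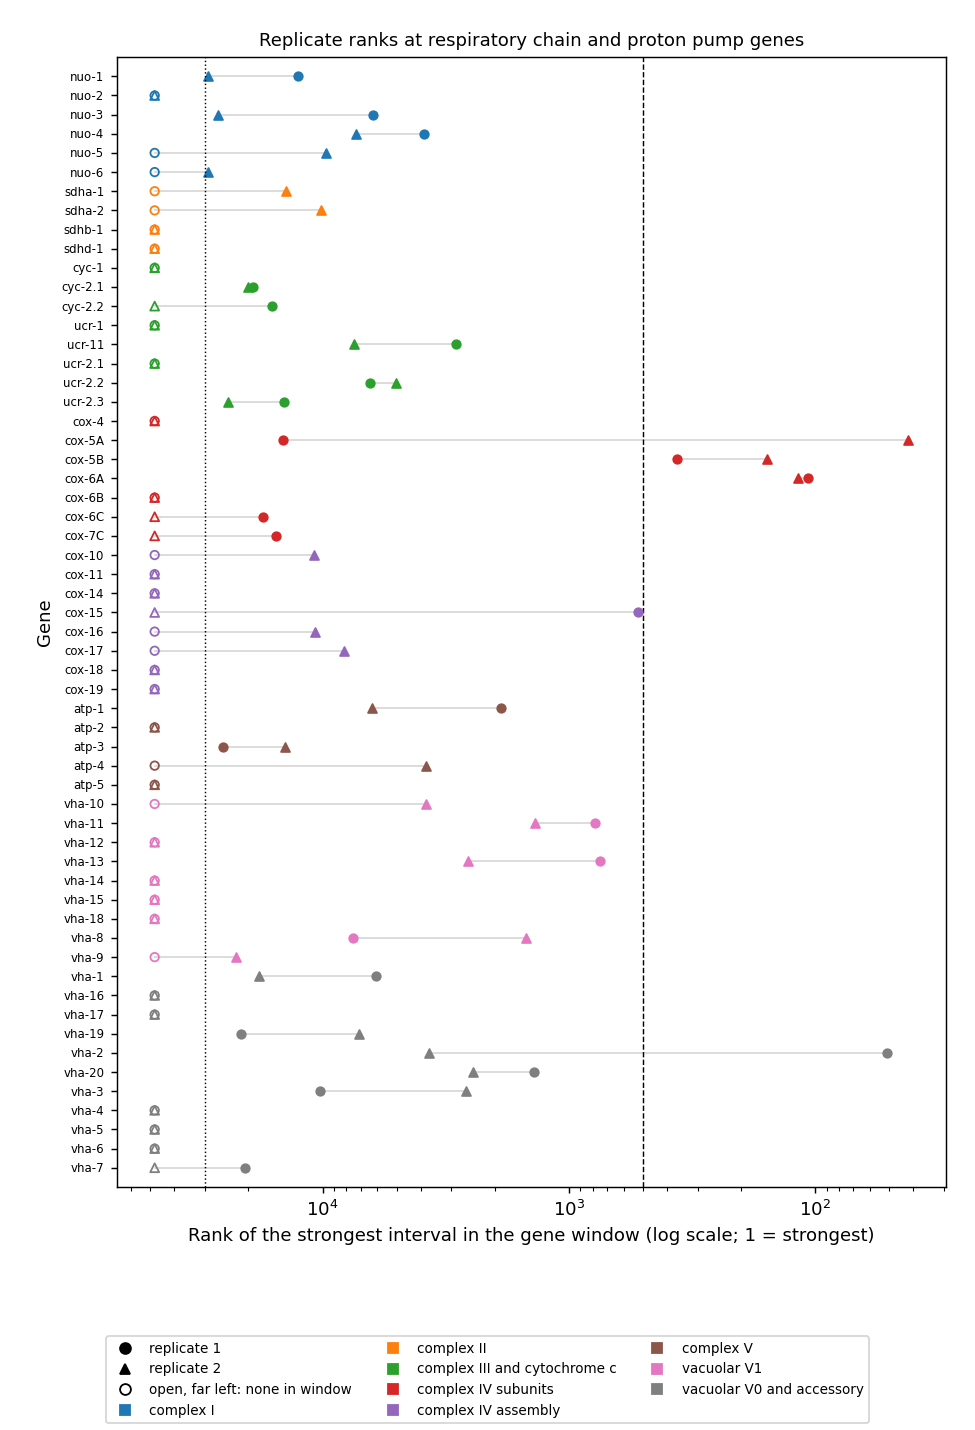
Rank of the strongest interval in the window of each of the 58 genes in replicate 1 (circles) and replicate 2 (triangles), on a reversed log axis with the strongest on the right, coloured by complex. Open symbols at the far left mark genes with no interval in that list, and vertical lines mark rank 501 (dashed) and the list length of 30000 (dotted). The genes cox-5B and cox-6A lie right of the dashed line in both replicates.

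Complex I, the NADH dehydrogenase, had pooled intervals at 3 of 6 genes (50%, against 31.0% of all protein-coding genes), none of them among the thresholded peaks. The strongest was at nuo-4, an accessory subunit, 585 bp upstream in an intron of the neighbouring gene rnp-7, where replicate 1 gave 34.1 and replicate 2 gave 31.8 (mean 32.9 ± 1.65, SD, n = 2), at pooled rank 2899. At nuo-5, an iron-sulfur subunit, an interval at pooled rank 11053 lay 132 bp inside the gene and was found in replicate 2 only. The intervals in the nuo-3 window were weaker, from rank 23172 on, and the nearest starts were those of other genes, arl-8 among them. The flavoprotein gene nuo-1 had an interval in each replicate list (ranks 12551 and 29275) but none in the pooled list, nuo-6 had 1 in replicate 2 at rank 29236, and nuo-2 had none in any list.

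Complex II, succinate dehydrogenase, had weak intervals, with a median pooled rank of 23767.5 for the strongest per gene. Those at the 2 flavoprotein genes were at pooled rank 17888 for sdha-2 and 29647 for sdha-1, and neither gene had an interval in replicate 1. In replicate 2, sdha-1 had 1 at rank 14032, farther upstream than the pooled one. The sdha-1 summit lay 14 bp inside a non-coding RNA gene, D2021.5, and within 250 bp of the start of a snoRNA gene, D2021.6. The iron-sulfur subunit gene sdhb-1 and the membrane anchor gene sdhd-1 had no interval in any list.

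In complex III, which hands electrons to cytochrome c, the core subunit gene ucr-2.2 and the small subunit gene ucr-11 had intervals in both replicates. For ucr-2.2 replicate 1 gave 30.1 and replicate 2 gave 35.3 (mean 32.7 ± 3.66, SD, n = 2), at pooled rank 4610, with the summit 197 bp upstream of the start and no other gene's window there. For ucr-11 the values were 36.4 and 31.6 (mean 34.0 ± 3.37, SD, n = 2) at pooled rank 6764, 74 bp inside the gene in an intron. The cytochrome c gene cyc-2.1 had an interval at pooled rank 24596 in an intron of its neighbour rpl-20. With the RefSeq start of cyc-2.1, which differs by 563 bp, no pooled interval lay in the window. The second cytochrome c gene, cyc-2.2, had 1 in replicate 1 alone at rank 16019. The core subunit gene ucr-2.3 had unmatched intervals in each replicate, at ranks 14338 and 24086. The cytochrome c1 gene cyc-1 and the core subunit genes ucr-1 and ucr-2.1 had none in any list.

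The remaining complex IV subunit genes were far below cox-5A, cox-5B and cox-6A. An interval 154 bp upstream of cox-6C was at pooled rank 12476 and was found in replicate 1 only, and cox-7C had an interval in replicate 1 at rank 15393 and none in the pooled list. No interval lay at cox-4 in any list. At cox-6B the answer depends on the annotation, because the Ensembl gene begins 86539 bp before the RefSeq gene. The Ensembl start had no interval, whereas at the RefSeq start a pooled interval at rank 3851 lay 101 bp upstream, with intervals at rank 6012 in replicate 1 and 4381 in replicate 2.

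Among the assembly genes of complex IV, cox-15, which encodes heme A synthase, had the strongest interval. Replicate 1 gave 51.8 (rank 524) and replicate 2 gave 39.97 (rank 2866), with a mean of 45.9 ± 8.37 (SD, n = 2), at pooled rank 1158 in a coding exon 97 bp inside the gene. The replicate 2 summit matched to it lay beyond the window, so cox-15 is not among the 14 genes counted in both. For cox-10, which encodes heme O synthase, cox-16, an assembly factor, and cox-17, a copper chaperone, the strongest pooled intervals were at ranks 12535, 10225 and 12319 and were found in replicate 2 only. The assembly genes cox-11, cox-14, cox-18 and cox-19 had no interval in any list.

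At the ATP synthase the alpha subunit gene atp-1 stood first. Replicate 1 gave 39.7 and replicate 2 gave 33.2 (mean 36.4 ± 4.53, SD, n = 2), at pooled rank 1534 with the summit 25 bp upstream of the start. That interval was not a thresholded peak. The window of mcrs-1, a neighbouring gene transcribed in the opposite direction, holds the same summit. A further atp-1 interval lay 591 bp upstream in a coding exon of mcrs-1, at rank 4108. At atp-4, coupling factor 6, an interval 29 bp inside the gene had rank 3806 in replicate 2 and no counterpart in replicate 1. The pooled intervals at atp-3, the oligomycin sensitivity conferral protein, were 728 bp or more upstream within the coding exons of F27C1.2, and replicate 2 alone had 1 nearer the start, at rank 14262. The beta subunit gene atp-2 and the stalk subunit gene atp-5 had none in any list.

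The vacuolar ATPase genes had pooled intervals as often as the others (10 of 20, against 19 of 38 for the respiratory chain). Both shares were 50%, against 31.0% of all protein-coding genes. Where there was one, the median pooled rank was 2967.5 for the vacuolar ATPase and 11053 for the respiratory chain, against 13459 over all protein-coding genes. In V1, the sector that splits ATP, the strongest was at vha-11, subunit C, where replicate 1 gave 47.7 and replicate 2 gave 46.8 (mean 47.2 ± 0.606, SD, n = 2), at pooled rank 819 with the summit 57 bp inside the gene. Next was vha-13, the catalytic subunit A, with signals of 47.9 and 41.0 (mean 44.4 ± 4.92, SD, n = 2) and pooled rank 872. Its summit lay 680 bp upstream, within the 3' untranslated region of cept-2. At vha-8, subunit E, the signals were 28.9 and 46.0 (mean 37.5 ± 12.1, SD, n = 2) at pooled rank 1875, 474 bp upstream of vha-8 but 112 bp upstream of C17H12.2, a gene transcribed away from it. At vha-10, subunit G, an interval 164 bp inside the gene was found at rank 3817 in replicate 2 and not in replicate 1. The subunit F gene vha-9 had only a replicate 2 interval at rank 22508. No interval lay at vha-12, subunit B, vha-14, subunit D, or vha-15 and vha-18, which both encode subunit H.

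In V0, the membrane sector, vha-2 was followed by vha-20, which RefSeq describes as a renin receptor-like protein. Replicate 1 gave 42.2 and replicate 2 gave 41.4 (mean 41.8 ± 0.536, SD, n = 2), with the summit 4 bp upstream of the start and a pooled rank of 1275. A thresholded peak at rank 454, with a pooled signal of 104, lay 226 bp downstream of the vha-20 start and thus past the edge of the window. That peak had rank 336 in replicate 2, and its summit there was 240 bp downstream. Replicate 1 had no summit within 200 bp of the summit of that peak. Its interval at the vha-20 start, from -204 to 199 bp, did overlap the peak, which ran from 25 to 428 bp. The proteolipid gene vha-3 had an interval 130 bp inside the gene at pooled rank 4060, with signals of 26.6 and 40.8 (mean 33.7 ± 10.1, SD, n = 2). For vha-19, the S1 accessory subunit, the rank was 13587, for vha-1 it was 22982 and for vha-7, a subunit a gene, 29049. The subunit a genes vha-5 and vha-6, the proteolipid gene vha-4, vha-17, subunit e, and vha-16, subunit d, had no interval in any list.

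**Figure D4:**
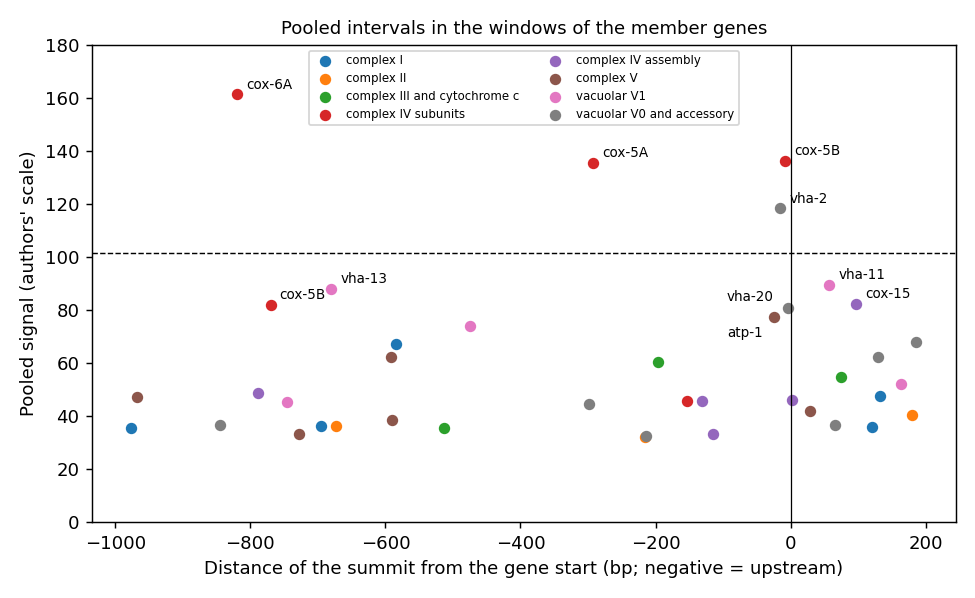
Signal of the 40 pooled intervals in the windows of member genes (scale as deposited) against the distance of the summit from the gene start in bp, coloured by complex. The dashed line is the weakest thresholded signal, 101.5. The 4 points above it are cox-6A, cox-5A, cox-5B and vha-2.

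The strongest pooled summit had a median position of -131 bp relative to the start, negative values being upstream (range -968 to 179, n = 29 genes), against -336.5 bp over all protein-coding genes with one. These medians follow the window, being -20 against -162 with 500 bp upstream and 100 bp downstream, and -585 against -637 with 2000 bp upstream and 500 bp downstream. In the main window the summit was within 200 bp of the start in 17 of the 29 (58.6%), against 38.9%. The difference in position was not tested. The member's start was the nearest protein-coding start for 24 of the 29 summits (82.8%, against 81.5% over all protein-coding genes with a pooled interval) and the nearest start of any kind for 21 (72.4%, against 71.7%), shares close to the background. By the annotation 13 of these summits were outside protein-coding genes (44.8%, against 51.3%), 8 were in coding exons (27.6%, against 27.2%) and 6 in introns (20.7%, against 12.01%). A further 1 was in a 5' untranslated region (3.45%, against 6.12%) and 1 in a 3' untranslated region (3.45%, against 3.38%). The 40 intervals counted over the members were 39 distinct ones, because vha-1 and vha-2 share an interval.

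The strongest pooled interval was matched within 200 bp in both replicates for 15 of the 29 genes (51.7%, against 42.3% of protein-coding genes with a pooled interval), in replicate 1 alone for 6, in replicate 2 alone for 7 and in neither for 1. Of the 15, 8 had the higher signal in replicate 2 (53.3%, against 62.5% of all protein-coding genes matched in both) and 7 in replicate 1. The median ratio of replicate 2 to replicate 1 was 1.09 against 1.11 over those 2617 genes. The median SD between replicates was 11.2% of the mean, and the replicate summits were a median of 57 bp apart. Across the 15 genes Spearman's rho was 0.44 and Pearson's r of log2 signal 0.42, given as a description, since the genes share both libraries and the control. The genes with an interval in the longer set of strong intervals of a library and no summit within 200 bp in the other were vha-2, vha-11, vha-10 and atp-4. For vha-11 this concerned a further interval, 192 bp upstream at rank 2123 in replicate 1, and not its strongest one.

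**Figure D5:**
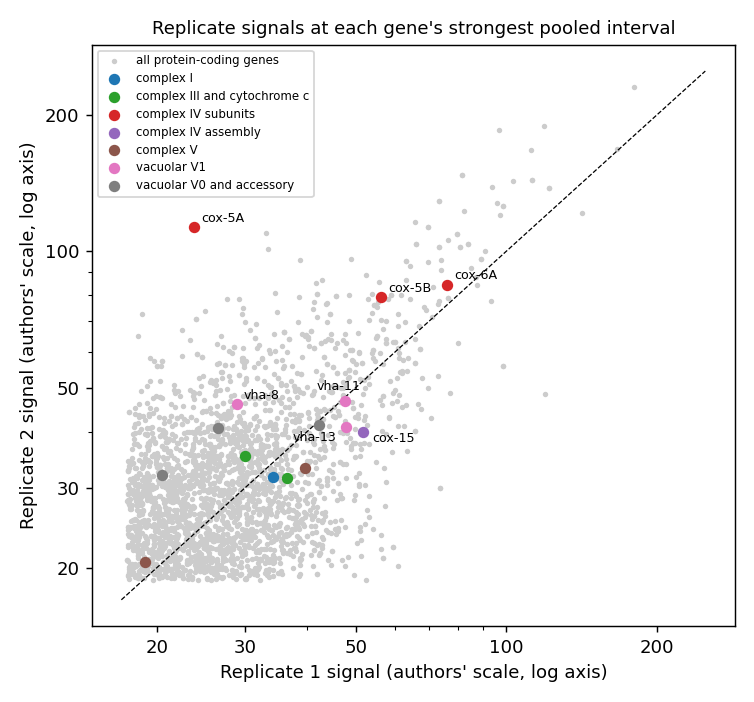
Signal in replicate 1 against replicate 2 at the strongest pooled interval of each gene, both on log axes and on the scale as deposited, for genes matched in both replicates. Grey points are all 2617 such protein-coding genes, coloured points the 15 members, and the dashed line marks equal values. The point for cox-5A, at 23.8 and 113, lies farthest above the line.

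No interval lay in the window of 23 of the 58 genes in any list, and over all protein-coding genes that share was 53.6%. These 23 are the genes named above as having none, from nuo-2 to vha-6. The nearest thresholded peak lay within 5000 bp of the start for 15 of the 58 genes (25.9%, exact 95% interval 15.3 to 39.0%), against 5.33% of all protein-coding genes. These include the 4 above, and vha-1 and vha-2 share a peak. In 3 cases it was from 1000 to 2000 bp upstream, at cyc-2.1 (1043 bp, rank 60), ucr-11 (1321 bp, rank 285) and cox-10 (1621 bp, rank 109). The peak upstream of cyc-2.1 lies nearer to the start of its neighbour rpl-20 and in the window of that gene.

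A list of 40 further genes of these and related pathways that carry other symbols was also counted. It was picked by name with earlier results known and is not complete. These genes had no thresholded summit (0 of 40, exact upper limit 8.81%). The 1.05% of all protein-coding genes and the 6.90% of the 58 genes both lie below that limit. They comprised 8 genes of complex I, mev-1 of complex II, isp-1 of complex III, 5 of ATP synthase, unc-32 and spe-5 of the vacuolar ATPase, 4 adenine nucleotide translocases and 19 genes of the citric acid cycle and pyruvate metabolism. Pooled intervals lay in the windows of 19 (47.5%, against 31.0% of all protein-coding genes), with a median strongest rank of 13077 against 13459. Both replicates had intervals within 200 bp at 9 (22.5%, against 12.6%). The exact 95% interval of the 47.5% runs from 31.5 to 63.9%, and the 50% of the 58 genes lies inside it.

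Beside other families counted in the same way, the 58 genes lay between the extremes. A thresholded summit was in the window of 9 of 81 cytosolic ribosomal protein genes (11.1%, exact 95% interval 5.21 to 20.05%), 2 of 156 cuticle collagen genes (1.28%) and 1 of 269 nuclear hormone receptor genes (0.372%). For any pooled interval the shares were 60.5%, 30.8% and 27.1%. The differences between these groups were not tested.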

How the data were processed

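Per the labels and the accompanying text files, the authors made 4 lists of intervals on ce11 from the alignment of each replicate, or both, and a shared control. The sources used here do not state the aligner, peak caller or threshold, and the control was not analysed here. The signal of each interval was deposited on an unstated scale, and ranks were taken from it within each list. The −log10 q-value that the authors deposited beside it entered no count or rank. In the pooled list it was 1.58 to 1.80 at the 4 thresholded peaks. At the other pooled intervals in member windows it was lower, from 1.18 at vha-11 down to 0.0322 at vha-7. Genes and starts came from the Ensembl annotation of assembly WBcel235, and a summit was placed by the deposited offset. A gene counted if a summit fell within its window (1000 bp upstream, 200 bp downstream), and summits within 200 bp were matched. Replicate numbers and the group came from the labels. Intervals are exact binomial (95%) and cover counting of genes only. A summit counts for every gene whose window holds it. Window assignment was tested on simulated data. Python 3.11.15, pandas 2.3.3, scipy 1.17.1 and matplotlib 3.10.9 were used. The members, lists and rules were chosen with earlier results of these data known. Named were genes with a thresholded summit, up to 3 of highest pooled signal per complex and genes with no interval. Also named were genes with a strong interval in 1 replicate and no summit within 200 bp in the other. Others were added to account for every member. R10E11.6 and the other neighbouring genes were named after their values were seen.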

Additional observations from a re-analysis of the deposited data

How the results depend on the processing

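No test was run, so no call can be lost, and the results below are counts of the 58 genes. The 4 genes with a thresholded summit became 8 (13.8%, against 1.69% of all protein-coding genes) with a wider window (2000 bp upstream, 500 bp downstream). This added ucr-11, cox-10, vha-20 and, through the peak nearer to rpl-20, cyc-2.1. The other settings gave 3 to 6 (5.17 to 10.3%, against 0.561 to 1.84% of all protein-coding genes), and each replicate alone gave 3. Leaving out intervals near tRNA, snoRNA and snRNA genes removed cox-6A and left 3 genes (5.17%, against 0.756%). Starts from RefSeq, an alternative chosen after seeing the data, gave 4 genes with a thresholded summit (6.90%, against 1.06%). They gave 29 with a pooled interval (50%, against 31.1%), with cox-6B in place of cyc-2.1. The 29 genes with a pooled interval became 18 (31.0%, against 17.4%) with a narrower one (500 bp upstream, 100 bp downstream) and 15 (25.9%, against 11.9%) with the 10000 strongest intervals. The 14 genes found in both replicates became 7 (12.1%, against 6.44%) and 25 (43.1%, against 24.1%) with the narrower and the wider window. They became 5 (8.62%, against 6.70%) when summits had to lie within 50 bp, so for that stricter match the share was close to the background. The 3 genes among the strongest intervals of replicate 1 became 6 (10.3%, against 1.71%) with 2 times as many intervals. In replicate 2 the count stayed at 3 (5.17%, against 1.85%). The 8 genes higher in replicate 2 became 3 when matches within 50 bp were required, with fewer genes left to compare. The median position of −131 bp became −20 and −585 with the narrower and wider windows (−162 and −637 over all genes) and −153.5 in the replicate 2 list. No paired analysis was possible because there is a single group. Unknown depth limits every value here, and an interval missing from a list does not show that nothing was bound there.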
